A study of Rattus norvegicus with 9 samples.

Results

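The enzymes that turn arachidonic acid into leukotrienes and prostaglandins were followed in RNA-seq values of RBLs (RBL-2H3), a mast cell (MC) model line derived from a basophilic leukemia of the rat. The members were chosen by gene symbol, and the files give them as Pla2g4a (gene identifier 24653), Alox5 (25290), Alox5ap (29624), Ltc4s (114097), Lta4h (299732), Ptgs1 (24693), Ptgs2 (29527), Hpgds (58962), Ptgds (25526) and Ptges (59103). All 10 symbols were found among the 38490 gene rows of each sample. Of these, 8 were among the 18006 genes with values, and Ptgds and Ptges were listed with no value in any sample, which is not the same as a value of 0. The expression values were read as FPKM, the fragments of a gene scaled to its length and to the mapped total. On this reading, the levels of different genes can be set side by side.

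The 9 samples fell into 3 groups of 3. The Ctrl samples were labelled untreated, although the treatment text shared by all samples describes sensitization, and the labels do not settle whether IgE was added to them. For the DNP samples, IgE against DNP was given at 50 ng/mL during 12 h of sensitization, followed by the antigen DNP-HSA at 100 ng/mL during 4 h of stimulation. The PF samples had the same sensitization and stimulation after 1 h of pretreatment with PF, an agent that the labels do not identify, and their stimulation time is given as 4 h in one field and as 4, 5 and 6 h for replicates 1, 2 and 3 in another. All samples came from 1 cell line, and nothing in the labels says that replicates were separate cultures, so p-values measure only the spread between these samples, which may be technical.

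MCs release leukotrienes and prostaglandins within minutes of FcεRI crosslinking, and these lipids contract airway muscle, widen vessels and draw in leukocytes. Cytosolic phospholipase A2 (Pla2g4a) frees arachidonic acid from membranes. One branch then runs through 5-lipoxygenase (Alox5) and its activating protein (Alox5ap) to leukotriene A4, from which Lta4h makes leukotriene B4 and Ltc4s makes leukotriene C4. The other branch runs through the cyclooxygenases (Ptgs1, constitutive in most cells, and Ptgs2, inducible) to prostaglandin H2, from which Hpgds, the hematopoietic synthase, makes prostaglandin D2. Ptgds is the lipocalin-type prostaglandin D synthase and Ptges the microsomal prostaglandin E synthase.

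The labels call the source peripheral blood and the cell type blood corpuscle. Of 13 MC markers, 11 had values and all 11 reached 1 FPKM, with a summed level of 5480 to 5630 FPKM in Ctrl, 5360 to 5470 FPKM in DNP and 5530 to 5760 FPKM in PF samples. Srgn, the granule proteoglycan serglycin, made up 2688.46 to 3003.76 FPKM of these sums. By limma, 1 of the 11 was higher and 5 were lower in DNP against Ctrl samples, beside 14.7% and 14.4% of all genes tested. In PF against DNP samples 3 were higher and 2 lower, beside 18.1% and 30.7% of all genes. In PF against Ctrl samples 3 were higher and 5 lower, beside 23.1% and 34.6%. The part of these changes in the results for the enzymes was not tested. The receptor chains Fcer1a (409.92 to 502.89 FPKM) and Ms4a2 (417.47 to 485.8 FPKM) were high in every sample, while the tryptases Tpsab1 and Tpsb2 were listed with no value. The 5 macrophage markers with values, of 6, stayed under 1 FPKM in every sample, as did the 1 neutrophil marker with values, of 6, so neutrophil RNA could hardly be judged. Of the 5 lymphocyte markers with values, Cd3e (6.74 to 9.52 FPKM) and Cd79a (up to 1.01 FPKM) reached 1 FPKM, and of 8 fibroblast and epithelial markers, Krt8 did (up to 1.1 FPKM). Deposited values summed to 573023 to 582577 FPKM in DNP, 580702 to 591539 FPKM in Ctrl and 610206 to 630069 FPKM in PF samples, so the PF samples had the highest sums. FPKM values hold no read numbers, so the depth in reads is unknown. Every sample was most like the other samples of its own group, and none was a copy of another.

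Ptgs2 and Pla2g4a, which were both higher in DNP than in the other samples, lie beside each other in the RefSeq annotation of GRCr8, with no protein-coding gene and 2 non-coding genes between them. The 250 bases before their RefSeq start sites are shown with those of Ptgs1, the other cyclooxygenase gene, and Alox5, the first enzyme of the leukotriene branch, since these pairs moved differently. Promoters of 8 of the 10 members were matched in the RefSeq table. Coordinates are those of GRCr8, not of the build rn6 of the deposited values. Capitals mark matches to the motifs searched.
Ptgs2, chr13:64713813-64714062, plus strand: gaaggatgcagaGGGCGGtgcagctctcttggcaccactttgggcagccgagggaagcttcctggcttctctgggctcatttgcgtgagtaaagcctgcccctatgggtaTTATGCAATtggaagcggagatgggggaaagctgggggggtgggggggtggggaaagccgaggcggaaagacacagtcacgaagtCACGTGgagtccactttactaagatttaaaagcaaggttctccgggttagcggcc
Pla2g4a, chr13:64572353-64572602, minus strand: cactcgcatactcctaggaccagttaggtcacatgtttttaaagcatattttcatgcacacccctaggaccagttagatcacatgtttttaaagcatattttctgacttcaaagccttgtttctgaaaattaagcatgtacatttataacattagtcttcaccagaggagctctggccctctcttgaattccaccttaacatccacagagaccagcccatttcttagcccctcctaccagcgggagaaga
Ptgs1, chr3:39981169-39981418, plus strand: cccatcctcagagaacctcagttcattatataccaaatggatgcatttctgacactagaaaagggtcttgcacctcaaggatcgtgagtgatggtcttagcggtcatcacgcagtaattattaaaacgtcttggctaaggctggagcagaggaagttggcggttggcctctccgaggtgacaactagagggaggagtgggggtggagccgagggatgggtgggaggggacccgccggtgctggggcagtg
Alox5, chr4:151251127-151251376, minus strand: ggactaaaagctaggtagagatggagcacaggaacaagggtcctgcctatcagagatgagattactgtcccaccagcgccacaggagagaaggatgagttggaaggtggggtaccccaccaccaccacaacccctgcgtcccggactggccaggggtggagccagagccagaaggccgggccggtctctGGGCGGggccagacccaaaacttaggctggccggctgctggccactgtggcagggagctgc

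The motifs searched on both strands were AP-1 (TGANTCA), CRE (TGACGTCA), E-box (CACGTG), EGR (GCGNGGGCG), C/EBP (TTNNGNAAT) and GC box (GGGCGG), of which the EGR motif and the GC box share the letters GGGCG. Counted from the start site, the Ptgs2 window held a GC box at -238, a C/EBP match at -140 and an E-box at -55. Of 33469 RefSeq promoter windows of the same length, 30.5% held a GC box, 10.9% a C/EBP match and 5.59% an E-box. The Alox5 window held a GC box at -61. These letters were not found in the Pla2g4a and Ptgs1 windows. The AP-1 motif, in 6.34% of all windows, the CRE, in 1.59%, and the EGR motif, in 4.29%, were found in none of these 4 windows. Among the 8 member windows searched, the EGR motif was found only in that of Ptges, at -74, and AP-1 and CRE in none. A match describes the sequence only.

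The levels of the enzymes differed far more between genes than between groups. In every group the order of FPKM levels was Ptgs2, Alox5ap, Alox5, Hpgds, Pla2g4a, Lta4h, Ptgs1 and Ltc4s, and no neighbours in this order overlapped within a group. Among all genes with values, Ptgs2 ranked between 104 and 177 in the 9 samples, Alox5ap between 180 and 199, Alox5 between 246 and 263, and Hpgds between 364 and 500. Pla2g4a ranked between 871 and 1266, Lta4h between 2069 and 2818, Ptgs1 between 3531 and 4148, and Ltc4s between 9492 and 12189. The highest members thus belonged to both branches, and Lta4h and Ltc4s were far lower than Alox5 and Alox5ap.

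**Figure D1:**
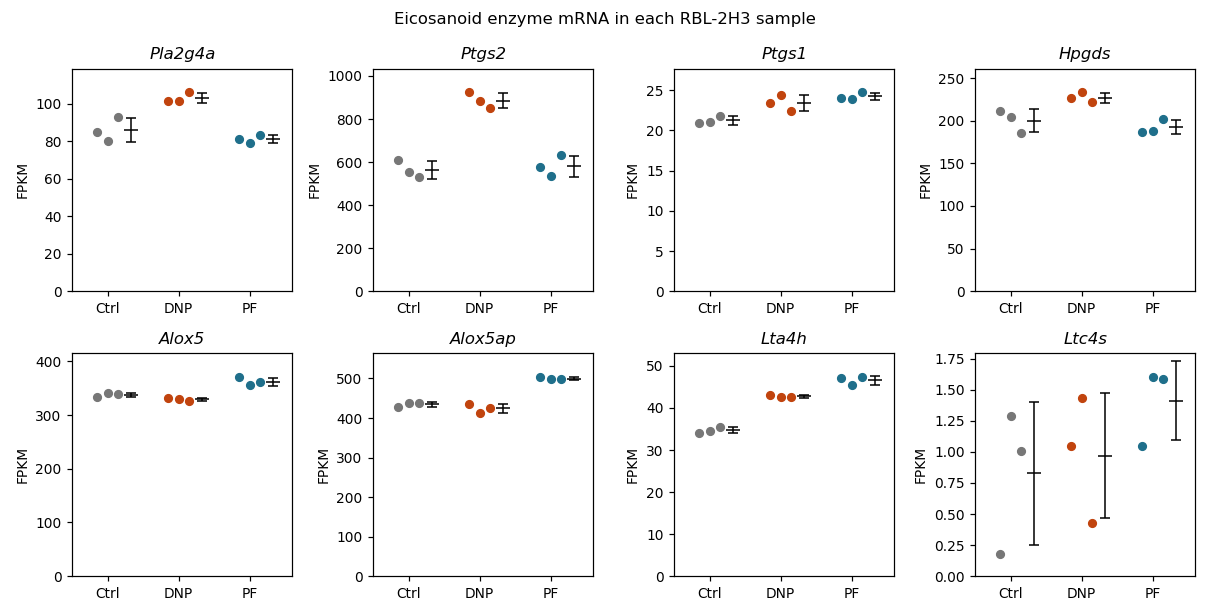
FPKM (linear axes from 0) of the 8 members with values, 1 panel per gene, with 1 point per sample and a bar for mean ± SD of 3 samples in the Ctrl, DNP and PF groups. Ptgs2 and Pla2g4a were higher in all DNP samples than in all Ctrl and PF samples, Alox5 and Alox5ap were highest in the PF samples, and Ltc4s stayed at or below 1.6 FPKM with overlapping groups.

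DNP samples were compared with Ctrl samples to ask which enzyme genes differed after sensitization and antigen stimulation. Since the labels do not settle whether Ctrl samples received IgE, the parts of IgE and antigen cannot be told apart here. In limma on log2(FPKM + 1), 4 of the 8 members tested were higher in DNP samples (Ptgs2, Lta4h, Pla2g4a and Hpgds), and the other 4 did not pass an adjusted p of 0.05. Over all 10392 genes tested, 14.7% were called higher, 14.4% lower and 29.2% in either direction. The members' median log2 fold change was 0.16, against -0.01 for all genes tested. All changes were below 1 on the log2 scale, and in bulk RNA a change in level per cell cannot be told apart from a change in the number of cells that express a gene.

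The release step and the cyclooxygenase branch held 3 of these 4 genes. Pla2g4a was at 85.1, 79.98 and 92.76 FPKM in Ctrl samples 1 to 3 and at 101.68, 101.41 and 106.09 FPKM in DNP samples. All DNP samples lay above all Ctrl samples, with means of 103 ± 2.63 and 85.9 ± 6.43 FPKM (SD, n = 3), and the log2 fold change was 0.26 (SE 0.0531, limma adjusted p = 0.00791). Ptgs2 was at 609.03, 554.65 and 529.49 FPKM in Ctrl samples and at 923.62, 884.86 and 849.73 FPKM in DNP samples. The groups were widely separated, at 564 ± 40.7 and 886 ± 37.0 FPKM (SD, n = 3), a ratio of 1.57. This was the largest fold change of the 8 members, at 0.65 on the log2 scale (SE 0.0553, limma adjusted p = 0.000169).

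Ptgs1 was at 20.86, 21.02 and 21.81 FPKM in Ctrl samples and at 22.37 to 24.42 FPKM in DNP samples. The groups did not overlap, but the log2 fold change of 0.13 (95% interval 0.03 to 0.24) had a limma adjusted p of 0.0633. With all 3 groups in the fit the adjusted p was 0.0404. Hpgds was at 210.84, 204.02 and 185.01 FPKM in Ctrl samples and at 226.13, 233.13 and 221.47 FPKM in DNP samples. All DNP samples were higher, and the log2 fold change was 0.18 (SE 0.0497, limma adjusted p = 0.0254). This call did not hold without DNP replicate 1 (adjusted p = 0.0634), without DNP replicate 2 (0.0857), without the filter on low values (0.0665) or without the trend (0.0604).

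In the leukotriene branch, only Lta4h passed the test. Lta4h, the hydrolase that makes leukotriene B4, was at 34.02, 34.63 and 35.44 FPKM in Ctrl samples and at 43.12, 42.67 and 42.51 FPKM in DNP samples. The spread within each group was small beside the gap, and the log2 fold change was 0.29 (SE 0.0349, limma adjusted p = 0.000778). Alox5 was at 333.57, 340.97 and 338.43 FPKM in Ctrl and at 331.95, 330.26 and 326.17 FPKM in DNP samples. These ranges did not overlap, yet they were close, with a log2 fold change of -0.04 (95% interval -0.10 to 0.03, limma adjusted p = 0.384). Alox5ap was at 426.92 to 439.15 FPKM in Ctrl and at 413.68 to 434.21 FPKM in DNP samples, with a log2 fold change of -0.04 (95% interval -0.11 to 0.04, limma adjusted p = 0.438). A rise of the size seen for Lta4h lies outside both intervals.

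Ltc4s, the glutathione-adding enzyme, had the lowest level of the 8 members. It was at 0.18, 1.29 and 1.01 FPKM in Ctrl samples, at 1.05, 1.43 and 0.43 FPKM in DNP samples and at 1.05, 1.6 and 1.59 FPKM in PF samples. The groups overlapped in each comparison. The intervals of its log2 fold change were wide, from -0.49 to 0.75 in DNP against Ctrl, from -0.11 to 0.75 in PF against DNP and from -0.08 to 0.98 in PF against Ctrl, and none passed the limma test (adjusted p = 0.75, 0.197 and 0.127). Without Ctrl replicate 2 the last had an adjusted p of 0.0472, and with a block for replicate number 0.0313. In the RefSeq annotation of GRCr8, Ltc4s overlaps Mgat4b, a glycosyltransferase gene at 6.68 to 10.7 FPKM. Mgat4b had a log2 fold change of 0.08 in DNP against Ctrl samples (limma adjusted p = 0.315). It was lower in PF samples, by -0.48 against DNP (adjusted p = 0.000611) and by -0.40 against Ctrl (0.00203). The strand of the library was not given, so reads of overlapping genes cannot be told apart.

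PF samples were compared with DNP samples to ask what differed after pretreatment. The DNP samples are shared with the comparison above, and each comparison is given with its own values. Of 8 members, 3 were lower in PF samples (Ptgs2, Pla2g4a and Hpgds) and 3 were higher (Alox5ap, Alox5 and Lta4h) by limma. Over all 10329 genes tested, 30.7% were called lower, 18.1% higher and 48.8% in either direction. The members' median log2 fold change was 0.09, against -0.04 for all genes tested. The 3 lower members stand in the release step and the cyclooxygenase branch and the 3 higher members in the leukotriene branch. The release step feeds both branches. With each sample scaled to the same sum, only Alox5ap of the 3 higher members was still called.

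Ptgs2 was at 575.85, 534.65 and 632.8 FPKM in PF samples, below every DNP sample. The PF mean of 581 ± 49.3 FPKM was 0.656 of the DNP mean, and the log2 fold change was -0.61 (SE 0.0595, limma adjusted p = 5.39e-05). Pla2g4a was at 81.34, 79.01 and 83.28 FPKM, also below every DNP sample, with a log2 fold change of -0.34 (SE 0.0350, limma adjusted p = 7.51e-05). Hpgds was at 186.59, 188.33 and 202.07 FPKM and fell by 0.24 on the log2 scale (SE 0.0390, limma adjusted p = 0.00106). Hpgds overlaps Smarcad1, a chromatin remodeler gene, in the RefSeq annotation of GRCr8. Smarcad1 was at 52.8 to 71.38 FPKM and was also lower in PF than in DNP samples (log2 fold change -0.28, limma adjusted p = 0.00215). Unlike Hpgds, Smarcad1 was not called in DNP against Ctrl samples (0.02, limma adjusted p = 0.739). It was called lower in PF against Ctrl samples (-0.26, adjusted p = 0.0053), where Hpgds was not called. The part of shared reads in the values of either gene was not tested.

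The genes of 5-lipoxygenase and its activating protein were highest in the PF samples. Alox5ap was at 502.94, 498.89 and 498.02 FPKM, above all Ctrl and DNP samples, and its log2 fold change against DNP was 0.24 (SE 0.0302, limma adjusted p = 0.000269). Alox5 was at 370.37, 355.43 and 361 FPKM, again above all other samples, with a log2 fold change against DNP of 0.14 (SE 0.0296, limma adjusted p = 0.00477). Lta4h was at 47.16, 45.39 and 47.29 FPKM, above all DNP samples, with a log2 fold change of 0.12 (SE 0.0347, limma adjusted p = 0.018). Unlike the calls of Alox5 and Alox5ap, that of Lta4h did not hold when DNP replicate 2 (adjusted p = 0.0566), DNP replicate 3 (0.0535) or PF replicate 1 (0.0581) was left out. Ptgs1 was at 24.08, 23.85 and 24.72 FPKM and its log2 fold change was 0.05 (95% interval -0.05 to 0.15, limma adjusted p = 0.404).

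**Figure D2:**
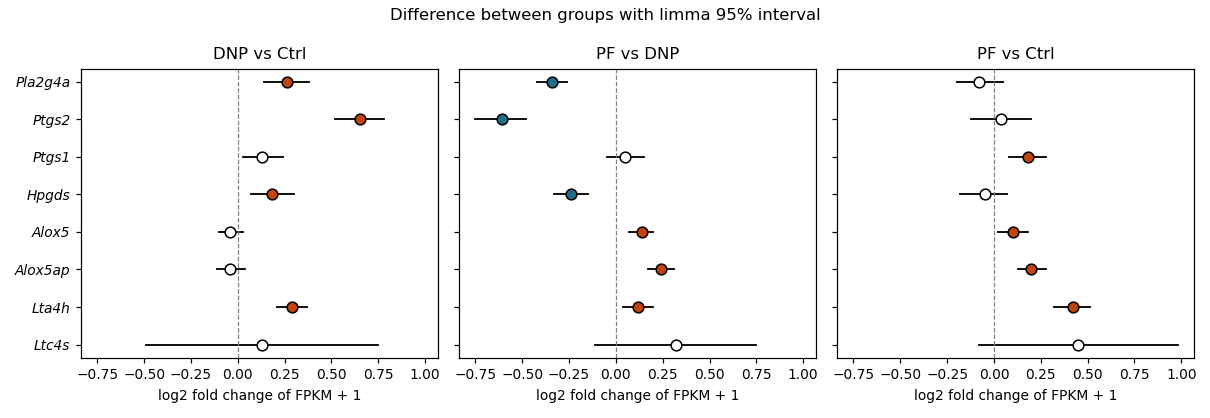
Log2 fold change of FPKM + 1 (horizontal axes, linear in log2 units) of the 8 members in the 3 comparisons, with the limma 95% interval. Filled points had an adjusted p of at most 0.05 (orange higher, blue lower) and open points did not. Ptgs2 lay at 0.65 in DNP vs Ctrl and at -0.61 in PF vs DNP, and the intervals of Ltc4s crossed 0 throughout.

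The small increases in PF samples depended on how samples were scaled. The median log2 fold change of all genes tested in PF against DNP samples was -0.04 as deposited, 0.02 after scaling by median ratios and -0.13 with each sample set to the same sum. With equal sums, Alox5 (0.04, limma adjusted p = 0.371) and Lta4h (0.02, 0.655) were no longer called, while Alox5ap (0.14, 0.00383) was. Relative to the median of all genes, Alox5 differed by 0.17 as deposited, 0.18 with median ratios and 0.17 with equal sums, and Lta4h by 0.16, 0.16 and 0.15. Ptgs1 had a log2 fold change of 0.11 with median ratios and of -0.05 with equal sums, and was called under none of these scalings. Relative to the median of all genes, Ptgs1 differed by 0.09 as deposited, 0.09 with median ratios and 0.08 with equal sums. Ptgs2, Pla2g4a and Hpgds were called lower under each of these scalings. Among all genes called in PF against DNP, 37.1% were higher as deposited, 51.5% with median ratios and 16.8% with equal sums.

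PF samples were also compared with Ctrl samples. Of 8 members, 4 were called higher by limma (Lta4h, Alox5ap, Ptgs1 and Alox5). Over all 10361 genes tested, 23.1% were called higher, 34.6% lower and 57.7% in either direction. The 3 genes that rose with DNP-HSA and were lower after PF, Ptgs2, Pla2g4a and Hpgds, did not pass the test here. Ptgs2 had a log2 fold change of 0.04 (95% interval -0.12 to 0.20, limma adjusted p = 0.64), Pla2g4a of -0.08 (-0.20 to 0.05, adjusted p = 0.251) and Hpgds of -0.05 (-0.18 to 0.07, adjusted p = 0.423). Their PF and Ctrl samples overlapped. These intervals leave room for differences smaller than those bounds.

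Of the 4 members called, Lta4h differed most from Ctrl, at 46.6 ± 1.06 against 34.7 ± 0.712 FPKM (SD, n = 3), with a log2 fold change of 0.42 (SE 0.0398, limma adjusted p = 4.9e-05). It was called higher than Ctrl in both stimulated groups. Alox5ap had a log2 fold change of 0.20 (SE 0.0327, limma adjusted p = 0.000896). Ptgs1 had 0.18 (adjusted p = 0.00702) and Alox5 0.10 (adjusted p = 0.0307). With equal sums Ptgs1 (adjusted p = 0.0986) and Alox5 (0.64) were not called. The call of Alox5 was also lost without Ctrl replicate 1, 2 or 3 (adjusted p = 0.0875, 0.0507 and 0.0636) and without PF replicate 1 or 3 (0.118 and 0.0584), as well as without the trend (0.0827). With PF replicate 1 alone, the sample given 4 h in both label fields, Alox5 (adjusted p = 0.0899) and Ptgs1 (0.0974) were not called. Among all genes called in PF against Ctrl, 40.0% were higher as deposited, 51.1% with median ratios and 26.7% with equal sums.

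**Figure D3:**
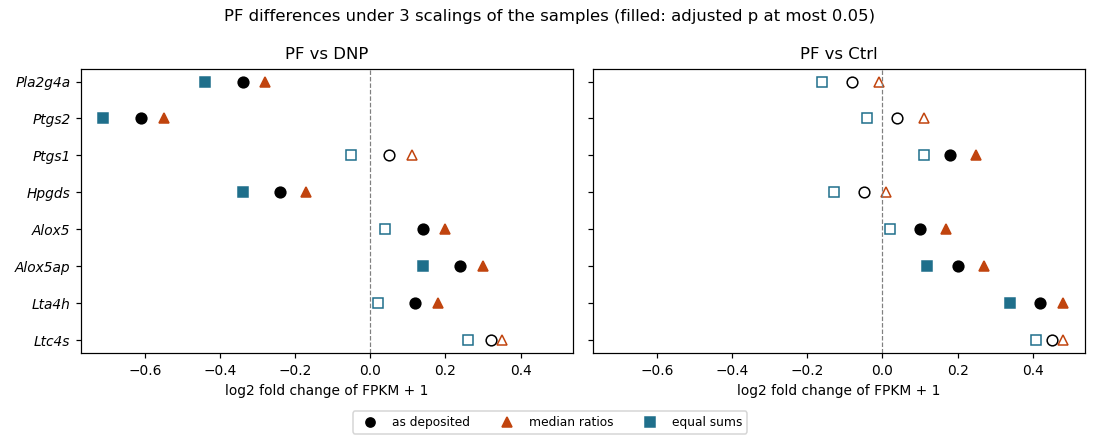
Log2 fold change of FPKM + 1 (horizontal axes) of the 8 members in PF vs DNP and PF vs Ctrl under 3 scalings of the samples, with circles for values as deposited, triangles for median ratios and squares for equal sums. Filled symbols had a limma adjusted p of at most 0.05. Equal sums moved Alox5 from 0.14 to 0.04 and Lta4h from 0.12 to 0.02 against DNP, while Ptgs2 was at -0.55 to -0.71 under the 3 scalings.

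Ratios of 2 genes within a sample do not depend on scaling. The ratio of Ptgs2 to Ptgs1 FPKM was 29.2, 26.4 and 24.3 in Ctrl, 39.5, 36.2 and 38.0 in DNP and 23.9, 22.4 and 25.6 in PF samples. All DNP samples lay above all others, whereas PF and Ctrl samples overlapped. The log2 ratio differed by 0.51 between DNP and Ctrl and by -0.66 between PF and DNP samples (exact two-sided permutation p = 0.1 each, the smallest that 3 samples against 3 allow). Of the summed FPKM of both cyclooxygenase genes, Ptgs2 held 96.0 to 96.7% in Ctrl, 97.3 to 97.5% in DNP and 95.7 to 96.2% in PF samples. The inducible gene therefore held nearly all cyclooxygenase mRNA also in Ctrl samples.

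The ratio of Alox5ap to Alox5 FPKM was 1.28, 1.28 and 1.30 in Ctrl, 1.31, 1.25 and 1.30 in DNP and 1.36, 1.40 and 1.38 in PF samples. The PF samples lay above all others, by 0.10 on the log2 scale against each group (exact two-sided permutation p = 0.1). Alox5ap was thus more raised than Alox5 in PF samples. The ratio of Ltc4s to Lta4h FPKM was between 0.00529 and 0.0373, with overlapping groups. A ratio of Hpgds to Ptges was planned and could not be formed, since Ptges had no value.

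**Figure D4:**
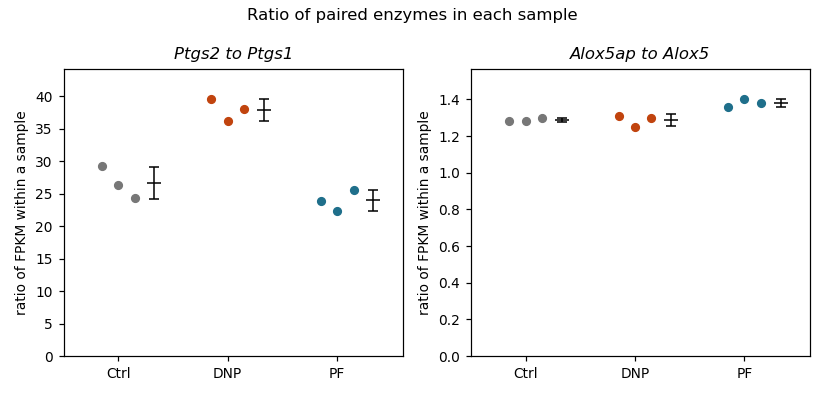
Ratio of FPKM within each sample (linear axes from 0) of Ptgs2 to Ptgs1 and of Alox5ap to Alox5, with 1 point per sample and a bar for mean ± SD of 3 samples per group. The Ptgs2 to Ptgs1 ratio was 36.2 to 39.5 in DNP samples and below 30 in all others, and the Alox5ap to Alox5 ratio was highest in PF samples, at 1.36 to 1.40.

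Around these enzymes, 9 lists of other genes of the pathway held 70 genes with values, of which 28 stayed under 1 FPKM in every sample. In DNP against Ctrl samples, 7 of 40 tested were higher by limma and 6 lower, beside 14.7% and 14.4% of all genes tested, which is near the background. In PF against DNP samples, 13 of 39 were higher and 9 lower, beside 18.1% and 30.7% of all genes, and in PF against Ctrl samples 9 of 39 were higher and 5 lower, beside 23.1% and 34.6%. The balance in PF samples moved with the scaling, as did that of all genes. With median ratios, 18 were higher and 8 lower in PF against DNP samples, beside 2758 and 2600 of all 10318 genes tested. In PF against Ctrl samples 16 were higher and 5 lower, beside 3142 and 3012 of 10342. With equal sums, 6 were higher and 11 lower in PF against DNP samples, beside 869 and 4302 of 10320. In PF against Ctrl samples these counts were 6 and 9, beside 1575 and 4316 of 10343. The genes named by rule had a log2 fold change of 0.5 or more in size, and passed the test, in at least 1 comparison.

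Among regulators of phospholipase A2, 2 of 6 genes rose and 1 fell in DNP against Ctrl samples, beside 14.7% and 14.4% of all genes. Anxa1, annexin A1, known as an inhibitor of phospholipase A2, was at 285 ± 5.46 FPKM in Ctrl, 425 ± 3.43 in DNP and 376 ± 13.6 in PF samples (SD, n = 3). Its log2 fold change was 0.57 in DNP against Ctrl (limma adjusted p = 1.12e-05) and -0.18 in PF against DNP (adjusted p = 0.00221), so PF samples lay between the other groups. Dusp1, a phosphatase that inactivates MAP kinases, was at 41.13, 43.01 and 35.1 FPKM in Ctrl, 43.61, 38.09 and 43.92 in DNP and 95.09, 99.71 and 88.02 in PF samples. Only the PF samples stood apart, with a log2 fold change of 1.15 against DNP (limma adjusted p = 2.17e-06). Mknk1, a kinase downstream of MAP kinases, fell from 83.5 ± 2.44 FPKM in Ctrl to 65.2 ± 0.757 in DNP and 54.0 ± 0.340 in PF samples (SD, n = 3), with limma adjusted p = 0.00033 and 0.000162 for the 2 steps.

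Among 18 other phospholipases A2 listed, 7 were tested in DNP against Ctrl samples. Of these, 3 were lower, beside 14.4% of all genes tested. Pla2g6, the calcium-independent enzyme, was at 7.08 ± 0.170 FPKM in Ctrl, 5.41 ± 0.301 in DNP and 4.13 ± 0.191 in PF samples (SD, n = 3), with a log2 fold change of -0.33 in DNP against Ctrl (limma adjusted p = 0.00607) and of -0.32 in PF against DNP (adjusted p = 0.00507). It thus went the other way from Pla2g4a in DNP samples. Of 9 genes tested for activation and reacylation of arachidonic acid, 2 rose in DNP against Ctrl samples, beside 14.7% of all genes. In PF against DNP samples 2 were higher and 2 lower, beside 18.1% and 30.7%. With median ratios the PF against DNP counts were 4 higher and 1 lower, beside 2758 and 2600 of all 10318 genes tested. With equal sums 3 were lower, beside 4302 of 10320. The counts of this list thus moved with the scaling, as did those of all genes.

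Among other prostanoid synthases, 1 of 4 tested, Ptges2, was called in each comparison as deposited. Of all genes, 29.2% were called in DNP against Ctrl, 48.8% in PF against DNP and 57.7% in PF against Ctrl samples. With median ratios 2 of 4 were higher in PF against DNP samples, beside 2758 of 10318 genes, and in PF against Ctrl samples, beside 3142 of 10342. With equal sums 1 was higher and 1 lower in PF against DNP samples, beside 869 and 4302 of 10320. Ptges2, a membrane-associated prostaglandin E synthase, was at 1.32, 1.78 and 1.66 FPKM in Ctrl, 3.37, 4.35 and 3.87 in DNP and 5.28, 6.56 and 5.93 in PF samples. No groups overlapped, and the log2 fold change was 0.91 in DNP against Ctrl (limma adjusted p = 0.000746) and 0.51 in PF against DNP (adjusted p = 0.0026). With only the PF sample given 4 h in both label fields, the latter was 0.37 (adjusted p = 0.0731). The 3 relatives of Ltc4s and Alox5ap in the MAPEG family are Mgst1, Mgst2 and Mgst3. All 3 were called higher in PF than in DNP samples by limma, beside 18.1% of all genes tested. With equal sums 1 of 3 was, beside 869 of 10320 genes. Log2 fold changes of Mgst1, Mgst2 and Mgst3 as deposited were 0.26, 0.36 and 0.17, and these genes are named after their values were seen.

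Of 5 genes tested for transport and breakdown, Ggt1, the gamma-glutamyltransferase that trims leukotriene C4, was at 3.07 ± 0.320 FPKM in Ctrl, 2.24 ± 0.226 in DNP and 1.13 ± 0.127 in PF samples (SD, n = 3). It was lower in PF than in DNP samples by limma (log2 fold change -0.60, adjusted p = 0.000847) and in DNP than in Ctrl samples (-0.33, adjusted p = 0.0303), the latter call being lost without Ctrl replicate 1 or 2 or DNP replicate 1 or 2, without the filter on low values (adjusted p = 0.076) and with a block for replicate number (0.0537).

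Of the receptors, 6 of 9 for prostanoids and 3 of 5 for leukotrienes stayed under 1 FPKM in every sample. Ptger4, the EP4 receptor for prostaglandin E2, was at 8.82, 8.25 and 7.68 FPKM in Ctrl, 13.65, 13.29 and 12.44 in DNP and 7.16, 8.16 and 6.81 in PF samples. It was high in DNP samples alone, with a log2 fold change of 0.61 against Ctrl (limma adjusted p = 0.000472) and of -0.76 in PF against DNP (adjusted p = 4.78e-05). Cysltr1, the main receptor for cysteinyl leukotrienes, was at 9.77, 9.06 and 9.54 FPKM in Ctrl, 10.84, 11.29 and 10.88 in DNP and 5.23, 5.34 and 5.55 in PF samples. It was lower in all PF samples, by -0.91 on the log2 scale against DNP (limma adjusted p = 3.8e-06) and by -0.71 against Ctrl (adjusted p = 2.5e-05). Its rise in DNP against Ctrl samples, 0.20 (adjusted p = 0.024), was lost without Ctrl replicate 2, without any 1 of the DNP replicates, and with a block for replicate number (adjusted p = 0.0538).

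**Figure D5:**
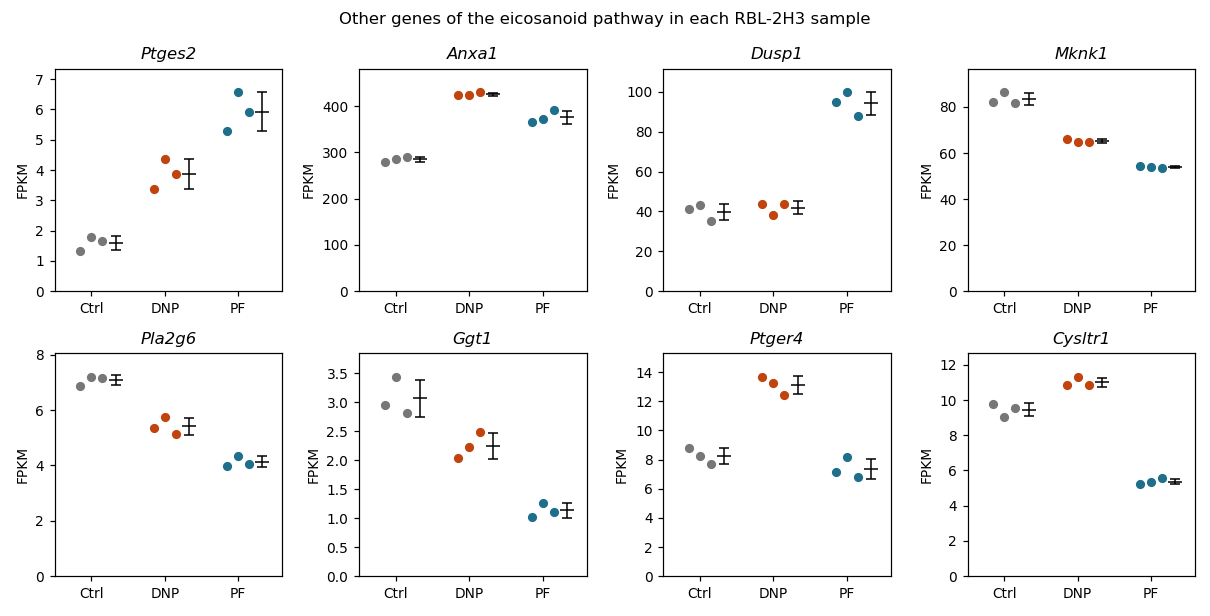
FPKM (linear axes from 0) of 8 other genes of the pathway whose log2 fold change was 0.5 or more in size, and passed the test, in at least 1 comparison, with 1 point per sample and a bar for mean ± SD of 3 samples per group. Ptger4 was high in DNP samples alone, Dusp1 was high and Cysltr1 low in PF samples alone, and Mknk1, Pla2g6 and Ggt1 were highest in Ctrl and lowest in PF samples.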

How the data were processed

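RNA-seq values of 9 RBL-2H3 samples (3 Ctrl, 3 DNP, 3 PF) were used. The authors filtered the reads with SOAPnuke and quantified genes with RSEM, and the submitters' processing notes list HISAT2 2.0.4, Bowtie2 2.2.5, RSEM 1.2.12 and the build rn6. The annotation is not given in the sources used here. The labels name Illumina library protocols, the study's methods a BGISEQ-500 sequencer. The deposited files hold 1 value for each gene and name no unit. The values were read as FPKM from their decimals, their differing sums and the use of RSEM. Whether they are scaled to gene length was not tested, and comparisons of levels between genes rest on it. The authors tested counts with DESeq2, which FPKM values do not allow. In the paper, far fewer genes passed a Q of at most 0.05 after DNP-HSA than the 3031 that limma called here. The cause of this difference was not tested. Read depth is unknown and no counting error can be given. Relative depth, read from 7 genes with stepped low values, was 0.982 to 1.02.

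Rows were joined by gene identifier, since samples listed genes in 5 orders. Groups came from the sample titles. Each comparison was fitted on its own 6 samples with limma 3.58.1 in R 4.3.3 (lmFit, eBayes with trend) on log2(FPKM + 1). Genes entered where 3 or more of the 6 samples reached 1 FPKM, with Benjamini-Hochberg adjustment over all genes tested and a threshold of 0.05. The pseudocount understates the fold changes of low genes. All 8 members with values passed the filter. Ratios of members were tested with two-sided exact permutation tests, whose smallest p is 0.1. The test was checked on simulated DNP and Ctrl values, drawn independently, in which a small share of genes was changed. Its error rates at the shares of genes called here were not tested.

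The members and the pathway and marker lists were chosen with earlier results of these data known. Other pathway genes were named where the absolute log2 fold change was at least 0.5 and the adjusted p at most 0.05 in any comparison, with at most 4 per list and comparison. A rule to name genes of similar pattern applied to members that reached a log2 fold change of 1 in size, which no member did. Alternatives were a pseudocount of 0.1, no filter, a block for the replicate number, a fit over all 3 groups, median ratios, equal sums, no trend, a threshold of 0.01, each replicate left out, and only PF replicate 1, given 4 h in both label fields.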

Additional observations from a re-analysis of the deposited data

How the results depend on the processing

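Leaving out 1 replicate at a time, the number of members called was 3 to 4 in DNP vs Ctrl, 5 to 6 in PF vs DNP and 3 to 4 in PF vs Ctrl, and the number of genes called was 2099 to 2736, 4138 to 4796 and 5147 to 5541. At a threshold of 0.01, 1469 genes were called in DNP vs Ctrl. In PF vs Ctrl, 2 members were called with equal sums and 2 with PF replicate 1 alone, whose label fields both give 4 h, where the lone sample is assumed to vary like the others. Directions turned only for log2 fold changes that were not called. Ltc4s in DNP vs Ctrl ranged from -0.16 to 0.34 (-0.16 without Ctrl replicate 1 and -0.04 without DNP replicate 2), Dusp1 in DNP vs Ctrl from -0.01 to 0.14, and Ptgs2 in PF vs Ctrl from -0.02 to 0.10 as replicates were left out. With equal sums, Ptgs1 was at -0.05 in PF vs DNP and Ptgs2 at -0.04 in PF vs Ctrl, and with median ratios Hpgds was at 0.01 in PF vs Ctrl. The cause of these changes was not tested. Deviations from the group mean were correlated across genes for samples with the same replicate number. The correlations were -0.0739 to 0.0514 in DNP vs Ctrl and -0.0822 to 0.00049 in PF vs DNP. In PF vs Ctrl all were positive, at 0.083 to 0.189. These values do not settle whether the numbers pair the samples. With the replicate block, 4, 6 and 5 members and 2697, 4675 and 6009 genes were called in the 3 comparisons, with Ltc4s called in addition in PF vs Ctrl (adjusted p = 0.0313) and Ggt1 (0.0537) and Cysltr1 (0.0538) no longer called in DNP vs Ctrl. Without a known read depth, the low values of Ltc4s rest on the 3 replicates alone.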
